A study of Homo sapiens with 12 samples.

Results

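The dual-specificity MAP kinase phosphatases described here are 10 genes, *DUSP1*, *DUSP2*, *DUSP3*, *DUSP4*, *DUSP5*, *DUSP6*, *DUSP7*, *DUSP10*, *DUSP16* and *DUSP22*, of the 58288 genes counted in HL-60/S4 cells. They were matched by symbol, through their Ensembl identifiers, and were selected on measured values, namely their responses to TNF-α within each cell type and their levels in these same libraries. Their fold changes, their calls and the differences between the cell types are therefore given as a description, without p-values. HL-60/S4 is a rapidly differentiating subline of the human myeloid leukaemia line HL-60, so every group is a single cultured line that carries the mutations of that leukaemia, among them an activated *NRAS* allele. Undifferentiated cells (promyelocytes) and cells given 1 µM all-trans retinoic acid (ATRA) for 4 days (granulocytes) were each treated for 2 h, in medium with added calcium, with 16 ng/mL TNF-α or with water as vehicle. For this treatment the granulocytes were suspended in fresh medium that again held 1 µM ATRA. The 4 groups held 3 libraries each, 1 per flask. The study ran the cell types as separate experiments, with the cells suspended at different densities, so that cell type and experiment cannot be told apart, either for levels or for the difference of the TNF-α responses. The p-values measure the spread between flasks of this line.

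Signals from growth factor, stress and cytokine receptors run through cascades of kinases that end in the MAP kinases ERK, JNK and p38, which are switched on when a threonine and a neighbouring tyrosine are phosphorylated. Dual-specificity phosphatases remove both phosphates and so switch the kinases off, and many of their genes are themselves induced by the pathway that they restrain. Among the classical MAP kinase phosphatases, *DUSP1*, *DUSP2*, *DUSP4* and *DUSP5* encode inducible nuclear enzymes, *DUSP6* and *DUSP7* cytoplasmic enzymes that prefer ERK, and *DUSP10* and *DUSP16* enzymes that prefer JNK and p38. *DUSP3* (also called VHR) and *DUSP22* (also called JKAP) belong to the atypical group, which lacks the kinase-binding domain of the classical enzymes. In myeloid cells, members of the family are known to limit cytokine output after inflammatory stimuli.

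The reading frames of all 10 genes encode the catalytic signature His-Cys followed, at a fixed spacing, by Arg, the motif that holds the phosphate. The stretch was found once in each canonical transcript of GENCODE v44, with its Cys codon between codon 88 in *DUSP22* and codon 408 in *DUSP10*. The 24 bases are shown for 9 of the genes, with the codons of the Cys and the Arg in capitals.
DUSP1: cacTGCcaggcaggcatttccCGG
DUSP2: cacTGCcaggcgggtatctcgCGC
DUSP3: cacTGCcgggaaggttatagcCGC
DUSP5: cacTGTgaggctgggatctccCGT
DUSP6: catTGCttggctggcattagcCGC
DUSP7: cacTGCctggcaggcatcagcCGC
DUSP10: cacTGCcaggctggggtgtccCGC
DUSP16: cacTGTttagctgggatctccCGC
DUSP22: cacTGCctggccggggtctccAGG
Only 8 of the 24 positions held the same base in all 9. The Arg codon is AGG in *DUSP22* alone, and begins with CG in the others.

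Promoter sequences (RefSeq, GRCh38.p14, 250 bases before to 50 after the annotated start) were at hand for 8 of the 10 genes. *DUSP4* and *DUSP5* had no entry. Both strands were searched for the NF-κB consensus, for the cyclic AMP response element TGACGTCA (CRE), for the AP-1 site TGANTCA, for TATAAA and for the GC box GGGCGG. Such matches are a description of the letters in this window and not of bound factors. Promoters are printed for the gene with the largest fold change in granulocytes (*DUSP2*), for a gene with opposite responses in the cell types (*DUSP3*), for the gene with an NF-κB consensus match (*DUSP7*), and for a gene with similar fold changes in both cell types (*DUSP16*), with the matches in capitals.
DUSP2, chr2:96145391-96145690, minus strand: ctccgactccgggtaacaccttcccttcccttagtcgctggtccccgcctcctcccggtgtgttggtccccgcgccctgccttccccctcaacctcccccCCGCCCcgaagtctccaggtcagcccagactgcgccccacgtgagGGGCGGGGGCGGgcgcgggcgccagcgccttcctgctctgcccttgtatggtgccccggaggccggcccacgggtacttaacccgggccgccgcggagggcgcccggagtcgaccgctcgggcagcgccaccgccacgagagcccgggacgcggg
DUSP3, chr17:43778928-43779227, minus strand: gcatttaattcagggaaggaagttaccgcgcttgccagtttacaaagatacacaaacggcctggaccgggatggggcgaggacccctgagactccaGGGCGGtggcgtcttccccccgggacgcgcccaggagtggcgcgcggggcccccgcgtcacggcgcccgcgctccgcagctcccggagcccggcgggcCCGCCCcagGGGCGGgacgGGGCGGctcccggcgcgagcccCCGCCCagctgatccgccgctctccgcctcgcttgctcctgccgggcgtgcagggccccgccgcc
DUSP7, chr3:52056522-52056821, minus strand: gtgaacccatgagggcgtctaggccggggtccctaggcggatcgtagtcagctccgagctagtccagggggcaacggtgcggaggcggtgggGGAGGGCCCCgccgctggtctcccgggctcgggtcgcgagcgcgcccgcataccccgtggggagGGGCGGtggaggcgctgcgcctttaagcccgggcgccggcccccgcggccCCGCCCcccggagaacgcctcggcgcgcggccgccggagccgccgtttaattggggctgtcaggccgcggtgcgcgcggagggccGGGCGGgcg
DUSP16, chr12:12562814-12563113, minus strand: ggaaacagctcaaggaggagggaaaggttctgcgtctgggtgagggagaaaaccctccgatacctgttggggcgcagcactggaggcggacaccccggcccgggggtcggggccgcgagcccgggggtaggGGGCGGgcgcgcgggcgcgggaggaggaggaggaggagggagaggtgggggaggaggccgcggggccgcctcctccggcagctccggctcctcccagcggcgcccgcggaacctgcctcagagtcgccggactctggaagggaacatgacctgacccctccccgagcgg
The NF-κB consensus matched in 1 of 8 members, in *DUSP7* at 158 bases before the start, and in 11.3% of all 35116 promoters. The GC box matched in 7 of 8 members, *DUSP6* being the exception, and in 44.95% of all promoters. The CRE and TATAAA each matched in 1 member, *DUSP1* in both cases, and in 1.85% and 11.5% of all promoters, respectively. AP-1 matched in 0 of 8 members and in 7.71% of all promoters.

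The libraries held 22829189 to 31895061 read pairs on genes, so that 3 counts stood at 0.0945 to 0.136 CPM (counts scaled to the TMM library size). Marker genes were used to check the labelled cell types. The summed level of 5 promyelocyte markers was 7316 to 8142 CPM in vehicle-treated promyelocytes and 2132 to 2345 CPM in vehicle-treated granulocytes, and that of 7 granulocytic markers was 156 to 164 CPM and 4857 to 5138 CPM. With TNF-α the granulocytic markers summed to 263 to 279 CPM in promyelocytes, where 2 of the 7 were called higher (*CYBB* and *NCF1*) and 1 lower (*CSF3R*), and to 5582 to 5951 CPM in granulocytes, where 3 were called higher (*NCF1*, *TGM2* and *FPR1*) and 3 lower (*ITGAM*, *CD38* and *CSF3R*). The promyelocyte markers summed to 6061 to 6961 CPM and to 2144 to 2351 CPM with TNF-α. Of 6 monocyte and macrophage markers, 5 were at or below 1 CPM on average in every group. The exception was *CSF1R*, *MARCO* was at 0, and the list summed to 3.90 to 4.76 and 2.93 to 3.95 CPM in promyelocytes (vehicle and TNF-α) and to 49.2 to 51.3 and 30.4 to 34.02 CPM in granulocytes. Lymphoid markers summed to between 13.5 and 23.3 CPM in all libraries. The part of these shifts in the results that follow was not tested. In bulk RNA, fewer cells of a type and less RNA per cell cannot be told apart. TNF-α acted in both cell types, as all 5 genes of the treatment check rose in each (*TNF*, *TNFAIP3*, *NFKBIA*, *VCAM1* and *ICAM1*). *NFKBIA*, the inhibitor that feeds back on NF-κB, rose by 3.91 ± 0.06 (SE) on the log2 scale in promyelocytes and by 5.51 ± 0.06 in granulocytes (edgeR, adjusted p = 1.75e-19 and 3.37e-39).

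In promyelocytes, 5 of the 10 phosphatase genes were higher with TNF-α (*DUSP2*, *DUSP4*, *DUSP10*, *DUSP16* and *DUSP22*) and 4 were lower (*DUSP3*, *DUSP5*, *DUSP6* and *DUSP7*) at an adjusted p under 0.05 in edgeR's quasi-likelihood test, while *DUSP1* did not pass. Of all 16250 genes tested there, 8.15% were higher and 6.65% lower. In granulocytes, all 9 members that passed the filter on low counts were higher, against 24.4% of the 16944 genes tested, and 24.8% of those genes were lower. *DUSP1* did not pass that filter. Among the 9 genes that both fits tested, 5 moved in the same direction and 4 in opposite directions. The groups did not overlap for 9 of 10 members in promyelocytes and for 10 of 10 in granulocytes, and for 30.9% and 55.1% of all genes tested. The 10 in granulocytes include *DUSP1*, which is not among the tested genes of the 55.1%. Since the 10 genes were chosen with these contrasts known, the counts are set beside those shares without a reading. The median log2 fold change of the members was 0.27 in promyelocytes and 1.15 in granulocytes, with medians of -0.01 and -0.00 over all genes tested.

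**Figure D1:**
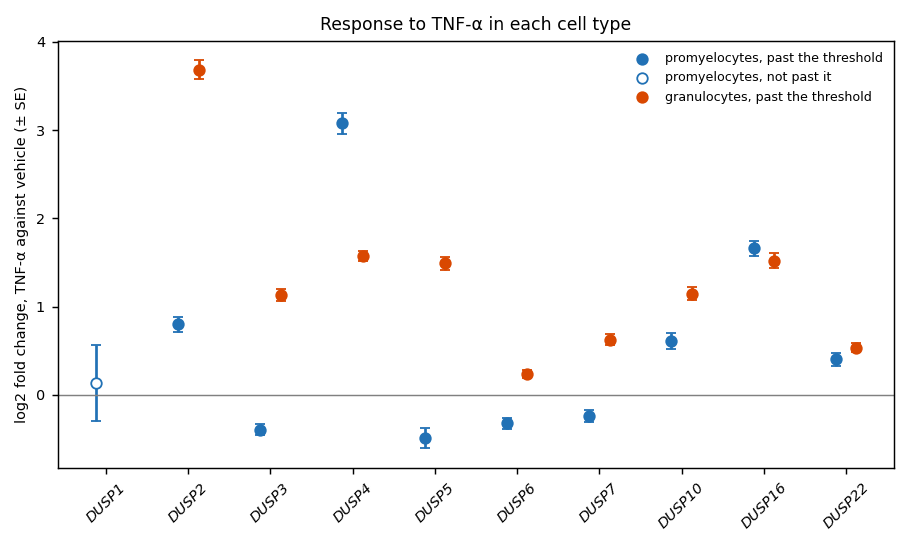
Log2 fold change of each phosphatase gene with TNF-α against vehicle (vertical axis), with bars of 1 SE, in promyelocytes (blue) and granulocytes (orange); filled points passed the threshold and the open point did not. *DUSP2* in granulocytes (3.69) and *DUSP4* in promyelocytes (3.08) stand highest, and *DUSP3*, *DUSP5*, *DUSP6* and *DUSP7* lie below 0 in promyelocytes and above 0 in granulocytes. *DUSP1* has no point in granulocytes, where it was not tested.

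Among the nuclear inducible enzymes, *DUSP2* (also called PAC-1, ENSG00000158050.4, chr2:96143166-96145440, 4 exon blocks) went from 16.8, 14.6 and 14.5 CPM in vehicle-treated promyelocytes to 23.4, 26.5 and 28.3 CPM with TNF-α. In granulocytes it went from 3.04, 2.38 and 2.25 CPM to 36.0, 33.0 and 30.1 CPM. The granulocytes thus had the lowest of the 4 group levels with vehicle and the highest with TNF-α, without overlap. The fold changes were 1.74 in promyelocytes (log2 0.80 ± 0.09 SE, n = 3 per group) and 12.9 in granulocytes (log2 3.69 ± 0.11). The difference of the responses, granulocytes minus promyelocytes in a fit of all 12 libraries, was 2.93 ± 0.15 on the log2 scale, the largest of the 10 genes.

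*DUSP4* (MKP-2, ENSG00000120875.8, chr8:29333064-29350668) showed the reverse order of responses. It stood at 4.02, 5.18 and 3.28 CPM in vehicle-treated promyelocytes and at 34.1, 33.8 and 35.2 CPM with TNF-α. In granulocytes it stood at 32.4, 34.1 and 34.4 CPM with vehicle and at 104, 98.7 and 101 CPM with TNF-α. The level in promyelocytes with TNF-α overlapped that in granulocytes without it. The fold changes were 8.43 in promyelocytes (log2 3.08 ± 0.11) and 2.98 in granulocytes (log2 1.57 ± 0.06), and *DUSP4* was the only member whose difference of responses was negative past the threshold, at -1.46 ± 0.12.

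*DUSP5* (ENSG00000138166.5, chr10:110497838-110511544), whose product is a nuclear phosphatase specific for ERK, was lower with TNF-α in one cell type and higher in the other. Promyelocytes had 10.3, 9.89 and 8.97 CPM with vehicle and 7.60, 6.57 and 6.30 CPM with TNF-α. Granulocytes had 14.8, 16.5 and 17.5 CPM with vehicle and 49.2, 46.6 and 43.0 CPM with TNF-α. The log2 fold changes were -0.49 ± 0.12 and 1.49 ± 0.07, and their difference was 2.02 ± 0.13. Primary alignments were counted also where a read fitted elsewhere, and the related pseudogene *DUSP5P1* held 17 to 40 counts in vehicle-treated promyelocytes and 46 to 55 with TNF-α, while *DUSP5* itself held 260 to 314 and 184 to 202. In granulocytes the pseudogene held 2 to 7 counts. Its part in the lower *DUSP5* value was not tested.

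*DUSP1* (MKP-1, ENSG00000120129.5, chr5:172768090-172771195), the best known immediate-early phosphatase of inflammatory signalling, was barely represented. Promyelocyte libraries held 27, 14 and 8 counts with vehicle and 23, 11 and 18 with TNF-α. Granulocyte libraries held 3, 5 and 3 counts with vehicle and 7, 10 and 11 with TNF-α. The groups overlapped in promyelocytes, where the log2 fold change was 0.13 ± 0.43 and took either sign when single libraries were left out (-0.19 to 0.63). In granulocytes the summed counts were 11 and 28, a ratio of 3.03 after scaling to library size (exact binomial 95% interval from 1.46 to 6.75, which covers counting error only). At these counts the size of the change was poorly determined. Its calls differed between fits: *DUSP1* passed the threshold in granulocytes with all 12 libraries in 1 fit, but not without the expression filter or in DESeq2. *DUSP8* and *DUSP9*, the remaining classical MAP kinase phosphatases, had 1 and 2 counts over all 12 libraries and were not tested.

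**Figure D2:**
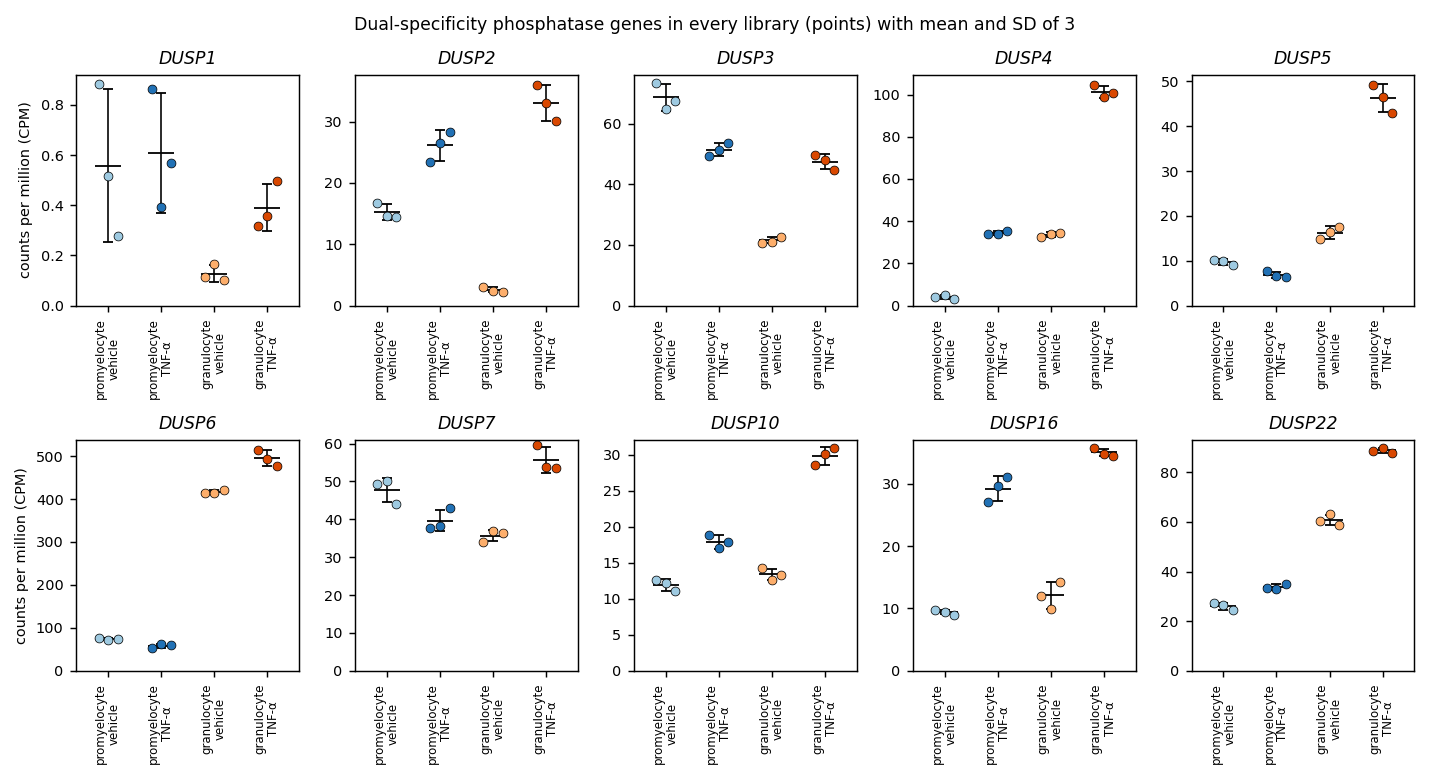
Level of each phosphatase gene (CPM, linear axes from 0 that differ between panels) in the 3 libraries of each group, shown as points with the group mean and SD as black bars. The vehicle and TNF-α points do not overlap within either cell type except for *DUSP1* in promyelocytes, and *DUSP6* reaches 515 CPM where *DUSP1* stays under 0.9 CPM.

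Of the cytoplasmic enzymes that prefer ERK, *DUSP6* had the smallest fold change of the 9 genes tested in granulocytes and by far the highest level. *DUSP6* (MKP-3, ENSG00000139318.7, chr12:89347232-89353271), a negative feedback regulator of ERK whose transcript follows ERK activity in many cells, had 75.9, 72.3 and 73.7 CPM in vehicle-treated promyelocytes and 53.2, 61.6 and 59.4 CPM with TNF-α. In granulocytes it had 415, 414 and 422 CPM with vehicle and 515, 493 and 478 CPM with TNF-α. The groups were separate in each cell type, and the fold changes were small: log2 -0.32 ± 0.06 and 0.23 ± 0.05, with a difference of 0.60 ± 0.08. A gene on the opposite strand overlaps 1875 exon bases of *DUSP6*, and the counting was by strand.

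*DUSP7* (ENSG00000164086.9, chr3:52048919-52056550), the closest relative of *DUSP6* in this set, had 49.2, 49.999 and 43.99 CPM in vehicle-treated promyelocytes and 37.7, 38.3 and 42.9 CPM with TNF-α. The groups were separate but close, at 43.99 and 42.9 CPM for their nearest libraries. Granulocytes had 33.9, 36.8 and 36.4 CPM with vehicle and 59.7, 53.8 and 53.5 CPM with TNF-α. The log2 fold changes were -0.24 ± 0.07 and 0.62 ± 0.06, and the difference was 0.91 ± 0.10. In promyelocytes the call was lost in 4 of 6 fits that left out 1 library (vehicle 1, vehicle 2, TNF-α 1 or TNF-α 2; the 6 values ran from -0.30 to -0.21), and also when the replicate number was taken as a block (-0.24). The lower value of *DUSP7* in promyelocytes is thus less certain than those of *DUSP3*, *DUSP5* and *DUSP6*, which passed in all 6 such fits.

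The JNK- and p38-directed enzymes were higher with TNF-α in both cell types. *DUSP10* (MKP-5, ENSG00000143507.17, chr1:221701424-221742176) went from 12.6, 12.1 and 11.04 CPM to 18.9, 16.997 and 17.9 CPM in promyelocytes, and from 14.2, 12.6 and 13.3 CPM to 28.5, 30.1 and 30.9 CPM in granulocytes. The log2 fold changes were 0.61 ± 0.09 and 1.15 ± 0.08, with a difference of 0.57 ± 0.11. *DUSP16* (MKP-7, ENSG00000111266.8, chr12:12474210-12562383) went from 9.73, 9.49 and 9.01 CPM to 27.1, 29.6 and 31.0 CPM in promyelocytes, and from 12.002, 9.96 and 14.3 CPM to 35.7, 34.8 and 34.5 CPM in granulocytes. Its fold changes, 3.16 and 2.87 (log2 1.66 ± 0.09 and 1.52 ± 0.09), lay close together. The difference of -0.10 ± 0.13 did not pass the threshold and became 0.039 without the third vehicle library of granulocytes, the highest of its group.

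The atypical enzymes behaved unlike each other. *DUSP3* (ENSG00000108861.8, chr17:43766121-43778988), known to act on ERK and JNK, had 73.6, 65.0 and 67.7 CPM in vehicle-treated promyelocytes and 49.3, 51.3 and 53.8 CPM with TNF-α. In granulocytes it had 20.8, 21.04 and 22.7 CPM with vehicle and 49.8, 48.0 and 44.8 CPM with TNF-α. It was lower with TNF-α in every promyelocyte library and higher in every granulocyte library, and the TNF-α groups of the cell types overlapped near 50 CPM although the vehicle groups were far apart. The log2 fold changes were -0.39 ± 0.06 and 1.13 ± 0.06, and the difference was 1.56 ± 0.09. *DUSP22* (ENSG00000112679.14, chr6:291630-351355), an activator of JNK signalling in some settings and an inhibitor of T cell receptor signalling, had 27.2, 26.4 and 24.4 CPM with vehicle and 33.5, 32.8 and 35.0 CPM with TNF-α in promyelocytes. Granulocytes had 60.3, 63.0 and 58.8 CPM with vehicle and 88.7, 89.8 and 87.8 CPM with TNF-α. The changes were similar in size (log2 0.40 ± 0.07 and 0.53 ± 0.05), and their difference of 0.17 ± 0.08 did not pass the threshold.

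Over the 10 genes, the difference of the responses passed the threshold in 7, positive in 6 and negative in 1 (*DUSP4*), against 14.1% and 9.88% of the 18124 genes tested. These differences follow from the contrasts by which the genes were chosen and are given as values only. In addition to the 4 genes with opposite directions, *DUSP2* and *DUSP10* rose more in granulocytes.

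To compare the genes with each other, levels were divided by exon length (RPKM, CPM per kilobase of the length in the deposited table). In vehicle-treated promyelocytes *DUSP6* (16.0 ± 0.39 SD, n = 3) and *DUSP3* (13.7 ± 0.88) had the highest levels. They were followed by *DUSP7* (8.45 ± 0.58) and *DUSP2* (7.90 ± 0.67), whose libraries overlapped, and then by *DUSP22*, *DUSP10* and *DUSP5* between 3.71 and 4.57 RPKM, where neighbours overlapped. *DUSP16* (1.64 ± 0.06), *DUSP4* (0.57 ± 0.13) and *DUSP1* (0.28 ± 0.15) were lowest. With TNF-α, *DUSP2* (13.5 ± 1.3) and *DUSP6* (12.5 ± 0.94) led with overlapping libraries, and *DUSP4* had reached 4.74 ± 0.10 RPKM, with libraries that overlapped those of *DUSP16* (5.11 ± 0.35).

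In granulocytes *DUSP6* stood apart from all other members, at 90.01 ± 0.97 RPKM with vehicle and 107 ± 4.0 with TNF-α. The next was *DUSP22* with vehicle (10.7 ± 0.37), and then *DUSP7* (6.32 ± 0.27) and *DUSP5* (6.22 ± 0.53), which overlapped, as did *DUSP4*, *DUSP10* and *DUSP3* between 4.29 and 4.64 RPKM. *DUSP2* (1.32 ± 0.22) was ninth of 10 with vehicle. With TNF-α, *DUSP5* (17.7 ± 1.2), *DUSP2* (17.1 ± 1.5) and *DUSP22* (15.6 ± 0.17) followed *DUSP6* with overlapping libraries between neighbours. Below *DUSP6* the order depended on the length used. *DUSP22* and *DUSP7* have merged exons of 5686 and 5648 bases but canonical transcripts of 3075 and 3361 bases. Per kilobase of the canonical transcript, a length chosen after the data had been seen, *DUSP22* was second in granulocytes with TNF-α, at 28.9 ± 0.32 RPKM, apart from *DUSP2* (19.6 ± 1.7) and *DUSP5* (18.7 ± 1.3). In vehicle-treated promyelocytes *DUSP7* (14.2 ± 0.97) then stood apart from *DUSP2* (9.06 ± 0.76), which overlapped *DUSP22* (8.45 ± 0.47). *DUSP6* had the highest mean in all 4 groups on that scale.

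The summed level of the 10 transcripts was 60.9 ± 3.0 RPKM in vehicle-treated promyelocytes and 68.2 ± 2.9 with TNF-α, and 130.2 ± 1.7 and 207 ± 7.7 in granulocytes. *DUSP6* made up 26.2% ± 0.90 and 18.4% ± 1.0 of the sum in promyelocytes and 69.1% ± 0.25 and 51.6% ± 0.028 in granulocytes. The nuclear inducible enzymes together went from 20.4% ± 0.71 to 31.0% ± 0.21 in promyelocytes and from 9.40% ± 0.26 to 23.6% ± 0.52 in granulocytes. The JNK- and p38-directed enzymes went from 9.42% ± 0.24 to 16.5% ± 0.58 and from 5.15% ± 0.39 to 7.91% ± 0.44. The share of the atypical enzymes went from 30.03% ± 0.66 to 23.8% ± 0.30 in promyelocytes, where *DUSP3* was lower with TNF-α, and from 11.5% ± 0.28 to 12.1% ± 0.23 in granulocytes. The directions of these class shares were the same with canonical transcript lengths, where the atypical enzymes made up 14.5% ± 0.38 and 15.2% ± 0.32 in granulocytes. In each cell type the share of the cytoplasmic enzymes was lower with TNF-α, and in granulocytes this was so although the levels of both were higher.

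**Figure D3:**
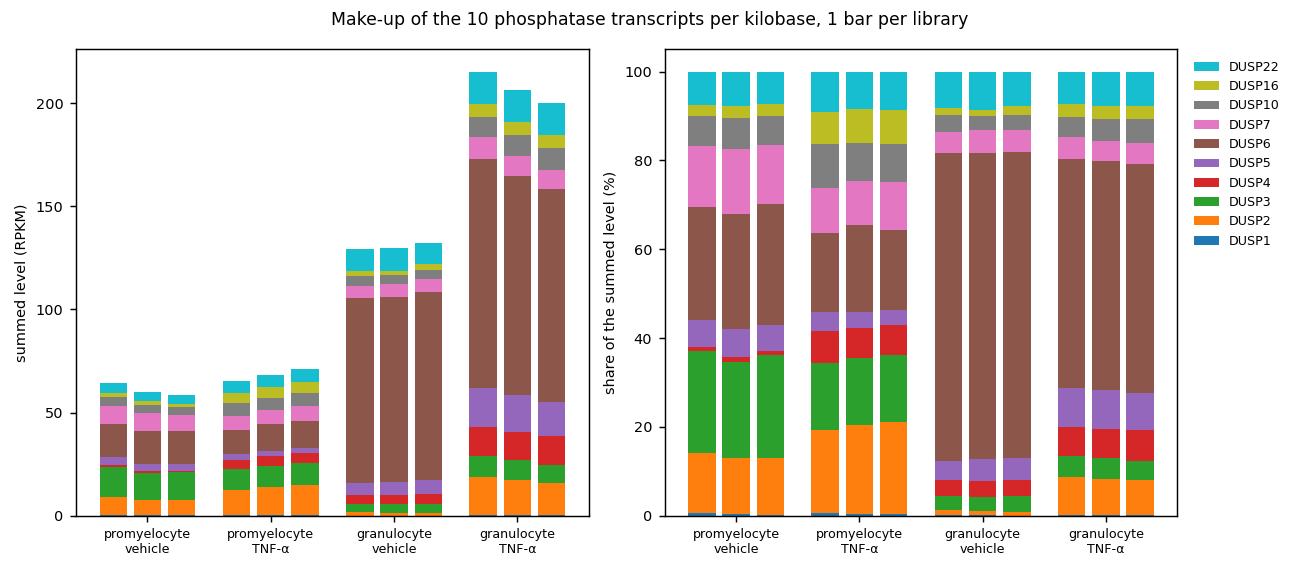
Stacked bars of the 10 phosphatase transcripts per kilobase, 1 bar per library, as summed RPKM (left) and as percent of the sum (right), with a colour for each gene. *DUSP6* takes 69.1% of the bar in vehicle-treated granulocytes and 26.2% in vehicle-treated promyelocytes, and the bars of granulocytes with TNF-α are the tallest, at a mean of 207 RPKM.

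Levels in the cell types were set side by side as a description, because cell type and experiment cannot be told apart. With vehicle, *DUSP4* was 8.09-fold, *DUSP6* 5.64-fold, *DUSP22* 2.34-fold and *DUSP5* 1.68-fold higher in granulocytes, and *DUSP2* was 5.97-fold, *DUSP1* 4.39-fold and *DUSP3* 3.20-fold higher in promyelocytes. *DUSP7* (1.34-fold higher in promyelocytes), *DUSP10* (1.12-fold higher in granulocytes) and *DUSP16* (1.28-fold higher in granulocytes) differed least. With TNF-α, *DUSP2* was 1.27-fold higher in granulocytes and *DUSP3* 1.08-fold higher in promyelocytes, the latter with overlapping libraries, whereas *DUSP5* was 6.78-fold and *DUSP6* 8.53-fold higher in granulocytes. The cell types were closer to each other with TNF-α than with vehicle for 5 of the 10 genes, and for 50.1% of the 17222 genes with reads in every library.

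**Figure D4:**
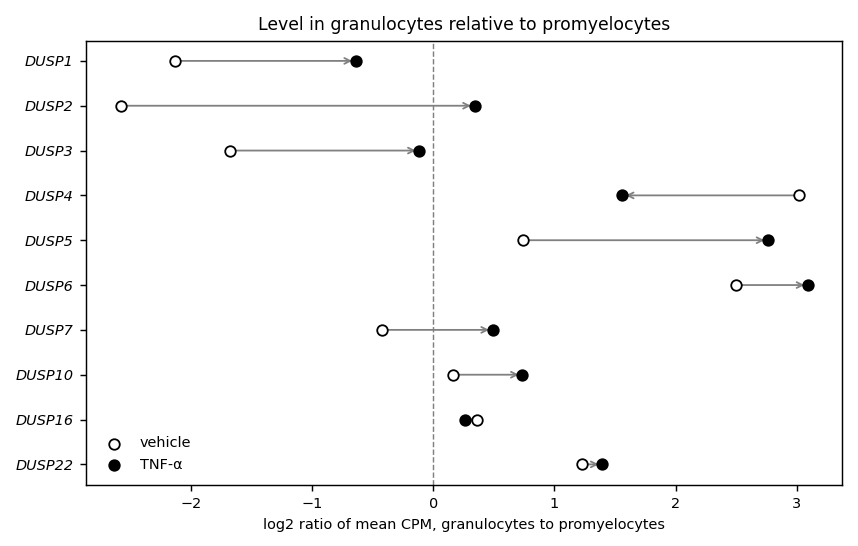
Log2 ratio of the mean CPM in granulocytes to that in promyelocytes (horizontal axis) for each gene, with vehicle (open) and with TNF-α (filled), and an arrow from the first to the second. *DUSP2* moves from -2.58 to 0.34 and *DUSP3* from -1.68 to -0.11, while *DUSP5* moves from 0.74 to 2.76, away from 0. Cell type and experiment cannot be told apart in these ratios.

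The genes whose levels ran most like 3 of the members over the 12 libraries were found by Pearson's r of log2 CPM among 12002 genes, as a description, since the points are 4 groups of 3 libraries. For *DUSP3* they were *SEC31A* (r = 0.982), which encodes a COPII coat protein, *ERF* (0.980), an ETS-domain repressor regulated by ERK, and *ESYT1* (0.979). In promyelocytes their log2 fold changes were -0.07 ± 0.06, -0.09 ± 0.06 and -0.12 ± 0.06. None of these passed the threshold, whereas *DUSP3* was at -0.39 ± 0.06. A high r over the 12 libraries thus did not mean the same response in promyelocytes. For *DUSP4* they were *DAPP1* (0.995), *ICAM1* (0.993) and *CCL1* (0.993), of which the last pair encode an adhesion molecule and a chemokine. For *DUSP2* they were *PNKD* (0.996), the unnamed gene ENSG00000277117 (0.991) and *ICOSLG* (0.990), which encodes a costimulatory ligand.

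To place the phosphatases in their pathway, 102 other genes on lists of MAP kinases, the kinases above and below them, other phosphatases, feedback inhibitors, ERK output genes and AU-rich element binding proteins were tested in the same fits. In promyelocytes 10 of 86 genes tested rose and 11 fell, against 8.15% and 6.65% of all genes. In granulocytes 40 of 85 rose and 21 fell, against 24.4% and 24.8% of all genes, so that the share that fell was near that of all genes. The response was more positive in granulocytes for 28 of 86 genes and more negative for 5, against 14.1% and 9.88% of all genes. The split was 25 and 7 with DESeq2's size factors, 20 and 9 of 94 genes tested without the expression filter, and 23 and 13 once trends with GC content and gene length had been removed. The shares of all genes belong to the main fit and were not counted for these alternatives. The other 13 genes named DUSP held 7 that were tested. None of them passed in promyelocytes (edgeR, 1 at an unadjusted p under 0.05, and 0 in DESeq2), and 4 rose and 2 fell in granulocytes, with 2 and 1 in DESeq2. In granulocytes *DUSP19* fell (log2 -0.61 ± 0.17, edgeR, adjusted p = 0.00382) and *DUSP14* rose by 0.49 ± 0.10 (edgeR, adjusted p = 0.000141).

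Among the substrates of these enzymes, 6 of 11 MAP kinase genes rose in granulocytes and 3 fell, where 24.4% of all genes rose and 24.8% fell. *MAPK14*, the main p38 gene, rose from 127 ± 2 to 197 ± 3 CPM (SD, n = 3; log2 0.61 ± 0.05 SE; edgeR, adjusted p = 1.02e-13), and *MAPK11*, another p38 gene, from 3.10 ± 0.16 to 8.22 ± 1.24 CPM (log2 1.39 ± 0.14, adjusted p = 1.62e-10). In promyelocytes only *MAPK6* passed, at 0.34 ± 0.06 (edgeR, adjusted p = 0.000328). *MAP2K3*, which activates p38, rose by 0.44 ± 0.07 in promyelocytes and by 0.37 ± 0.05 in granulocytes (edgeR, adjusted p = 6.05e-05 and 2.97e-07). Of 20 MAP3 kinase genes, 10 rose and 4 fell in granulocytes. *MAP3K8*, which encodes the kinase that links TNF-α signalling to ERK, rose from 25.5 ± 1.1 to 46.2 ± 0.3 CPM there (log2 0.84 ± 0.06, adjusted p = 3.00e-14), and *MAP3K3* fell from 156 ± 4 to 74.4 ± 4.7 CPM (log2 -1.09 ± 0.05, adjusted p = 1.10e-19).

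The feedback inhibitors of the ERK pathway had 1 of 11 up and 3 down in promyelocytes (8.15% and 6.65% of all genes) and 4 of 10 up and 2 down in granulocytes (24.4% and 24.8% of all genes). *SPRY4*, a Sprouty inhibitor of receptor signalling, fell from 14.3 ± 1.3 to 8.40 ± 1.44 CPM in promyelocytes (log2 -0.74 ± 0.12; edgeR, adjusted p = 0.000132) and rose from 0.34 ± 0.12 to 1.99 ± 0.39 CPM in granulocytes (log2 2.54 ± 0.34, adjusted p = 7.08e-08), opposite directions like those of *DUSP3*, *DUSP5*, *DUSP6* and *DUSP7*. *SPRY4* was low in vehicle-treated granulocytes, at 0.23 to 0.46 CPM, which limits the precision of its fold change there. *SPRY2* fell in both cell types, by 0.40 ± 0.07 and by 0.42 ± 0.05 on the log2 scale (edgeR, adjusted p = 0.000219 and 3.36e-09). Of 11 ERK output genes tested, 2 rose and 5 fell in promyelocytes, and 5 rose and 3 fell in granulocytes. Both *SPRY2* and *SPRY4* are also on this list, so they enter the counts of the feedback inhibitors and of the output genes. *IER3* rose most, from 1.29 ± 0.05 to 19.6 ± 1.2 CPM and from 1.54 ± 0.04 to 38.8 ± 5.6 CPM (edgeR, adjusted p = 7.21e-15 and 2.58e-28). *MYC* fell from 1879 ± 115 to 797 ± 53 CPM in promyelocytes (log2 -1.21 ± 0.06, adjusted p = 1.37e-11), and its value in granulocytes was -0.07 ± 0.06. *PHLDA1* rose in granulocytes, by 1.57 ± 0.05 (adjusted p = 7.52e-25). Lower in both cell types were *ETV5* (log2 -0.37 ± 0.07 and -1.11 ± 0.06, edgeR, adjusted p = 0.000858 and 6.71e-18) and *EGR1* (-0.83 ± 0.19 and -0.62 ± 0.08, edgeR, adjusted p = 0.00414 and 2.42e-08). Of 6 genes for proteins that bind AU-rich elements, such as those in many short-lived phosphatase and cytokine transcripts, 1 rose and 1 fell in promyelocytes, and 4 rose and 1 fell in granulocytes. *ZFP36*, which encodes tristetraprolin, rose by 0.76 ± 0.09 and by 0.50 ± 0.07 (edgeR, adjusted p = 2.45e-06 and 1.44e-07), and *ZFP36L2* fell by 1.20 ± 0.06 and by 0.47 ± 0.05 on the log2 scale (adjusted p = 1.55e-11 and 2.27e-10).

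**Figure D5:**
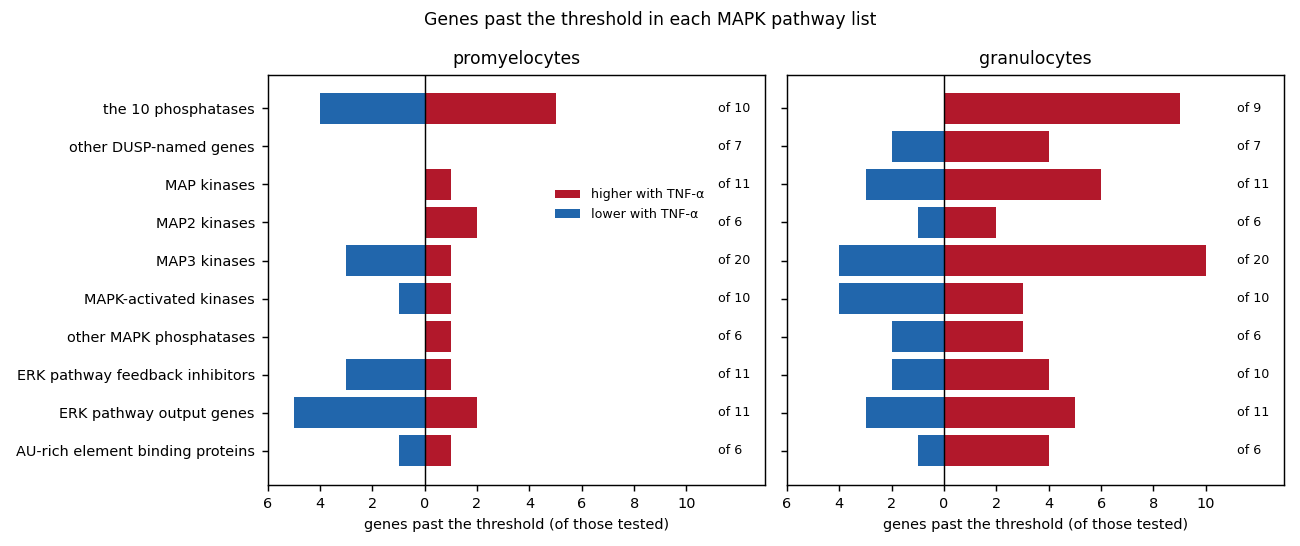
Number of genes past the threshold on each list, higher with TNF-α (red, to the right) or lower (blue, to the left), in promyelocytes and granulocytes, with the number tested at the right of each bar. The bar of the 10 phosphatases has 5 higher and 4 lower in promyelocytes and 9 higher in granulocytes, and the MAP3 kinases have 10 higher and 4 lower in granulocytes. *SPRY2* and *SPRY4* count both among the feedback inhibitors and among the output genes.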

How the data were processed

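RNA from 12 flasks of HL-60/S4 cells was sequenced after removal of ribosomal RNA. The authors aligned the reads to hg38 with STAR 2.5.3a and counted read pairs on GENCODE v27 genes with featureCounts 1.5.2, using primary alignments, both ends mapped, no chimeras and the reverse strand, and deposited the raw counts and gene lengths without normalization. Primary alignments include reads that also fit elsewhere. Symbols from a reference table of gene names matched 57532 of 58288 identifiers.

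Separate fits for promyelocytes and granulocytes used edgeR 4.0.16 (TMM, filterByExpr with a minimum count of 10 and a minimum total of 15, quasi-likelihood test, prior count 0.125) and adjusted by Benjamini-Hochberg over all genes tested, with a threshold of 0.05. The difference of the responses was the interaction in a fit of 12 libraries. With 3 libraries per group, n limits the precision, and the floor of 3 counts covers counting error only. The members, gene lists and tests were chosen with earlier results of these data known. Named were all members, up to 3 called genes per list and cell type with the largest change and a mean log2 CPM of at least 1, all genes of the treatment check, and for *DUSP3* and the members with the largest changes the 3 genes with the highest correlation. Flasks of 1 line were the replicates, and libraries of 1 group differed by more than sampling noise. The separate fits, the fit of the difference and the removal of GC and length trends were tested on simulated data, and the other alternative fits were not. Alternatives were DESeq2's size factors, no filter, DESeq2 1.42.0, the replicate block, all 12 libraries in 1 fit, removed GC and length trends, a threshold of 0.01 and each library left out. The length of the canonical transcript (GENCODE v44), for the levels per kilobase, was added after the data had been seen.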

Additional observations from a re-analysis of the deposited data

Results flagged for a closer look

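For 7 of the 10 phosphatase genes and 21 of the 34 other pathway genes named by the rule, the response to TNF-α differed between the cell types in edgeR's test of the difference, given here as granulocytes minus promyelocytes on the log2 scale. Of all 18124 genes tested, 14.1% passed with a positive and 9.88% with a negative difference. The 34 genes were named for the largest called changes of their lists in a cell type, so their count is not a share of the pathway. Over all 86 pathway genes tested, 28 passed with a positive and 5 with a negative difference. The cell types were separate experiments, so these differences cannot be told apart from differences between the experiments' conditions. For the phosphatases, which were chosen with these responses known, the differences were 2.93 for *DUSP2*, 2.02 for *DUSP5*, 1.56 for *DUSP3*, 0.91 for *DUSP7*, 0.60 for *DUSP6*, 0.57 for *DUSP10* and -1.46 for *DUSP4*.

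Among the feedback inhibitors and ERK output genes named by the rule, the difference was 3.33 for *SPRY4* (low in vehicle-treated granulocytes), 1.39 for *PHLDA1*, 1.18 for *MYC*, 0.72 for *IER3*, 0.64 for *SPRED2* and 0.34 for *RASA1*. Among the kinases it was 0.96 for *MAP3K6*, 0.68 for *MAP3K9*, 0.65 for *MAP3K8*, 0.56 for *MAPK14*, 0.37 for *MAPK6* and 0.26 for *MAP2K5*, and it was negative for *MAP3K3* (-0.81), *RPS6KA5* (-0.59) and *MAP3K1* (-0.39). Among the other phosphatases it was 0.65 for *DUSP18*, 0.62 for *DUSP14*, 0.29 for *PPP2CB* and -0.30 for *PPM1D*, and among the AU-rich element binding proteins 0.76 for *ZFP36L2* and 0.53 for *ELAVL1*.

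Of these 21 differences, 6 were lost under at least 1 alternative: those of *MAP2K5*, *PPM1D* and *PPP2CB*, which passed in 8, 7 and 6 of 17 other fits, that of *MAP3K9* without the expression filter and with GC and length trends removed, that of *RASA1* without the filter and without the third vehicle library of promyelocytes, and that of *IER3* with GC and length trends removed (0.53).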

How the results depend on the processing

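Of 398 recomputed fold changes and differences of the members, 390 kept their direction and their side of the threshold. The exceptions were *DUSP7* in promyelocytes in 5 fits, *DUSP1* in promyelocytes, which turned to -0.18 without the third vehicle library and to -0.19 without the first TNF-α library (range -0.19 to 0.63 over single libraries left out), and the difference of *DUSP16*, which turned to 0.039 without the third vehicle library of granulocytes (range -0.23 to 0.039). With single libraries left out, the number of members called was 8 to 9 in promyelocytes, 9 in granulocytes and 7 for the difference, and that of pathway genes 16 to 22, 55 to 57 and 28 to 36, in place of 21, 61 and 33. With the replicate number as a block, 8 members and 19 pathway genes were called in promyelocytes, 9 and 56 in granulocytes, and 7 and 27 for the difference. Libraries with the same number did not deviate together (correlations of their residuals from -0.09 to -0.01). These values show no shared shift by number, but they cannot settle whether the flasks were paired. At a threshold of 0.01 the members called were 8, 9 and 7. The shares of all genes belong to the main fit. They were not counted with single libraries left out, with the replicate block or at the threshold of 0.01, so these counts have no share beside them. With the length of the canonical transcript, *DUSP6* made up 66.9% of the summed level in vehicle-treated granulocytes and 51.1% with TNF-α, in place of 69.1% and 51.6%, and the order of the other members changed. The cause was not tested. A coding length from RefSeq was not run. The counts of *DUSP1* set the limit of depth here.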
